A study of Zea mays with 8 samples.

Results

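A set of 141 genes, of 39475 in the tables, was more abundant in maize aleurone at 22 days after pollination (DAP) than at 18 DAP by a rule on TPM, a length-corrected share of all transcripts in a library. A gene belonged to the set when its lower value in the 2 aleurone libraries at 22 DAP was at least 10 TPM and at least 2 times its higher value in the 2 libraries at 18 DAP. The opposite rule, with the ages exchanged, was met by 245 genes. Kernels of the inbred line B73, grown in a greenhouse, were peeled mechanically into aleurone and starchy endosperm, and RNA of both tissues was sequenced. The 4 groups were aleurone at 22 DAP, aleurone at 18 DAP, starchy endosperm at 22 DAP and starchy endosperm at 18 DAP, each with 2 libraries from biological replicate plants, all without treatment.

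The aleurone is the outermost cell layer of the endosperm. It stays alive in the mature grain, while the starchy endosperm beneath it fills with starch and storage protein and then dies. Late in grain filling aleurone cells store oil and protein, prepare for drying, can make anthocyanin pigment, and later secrete hydrolases when the grain germinates.

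Markers were checked against the tissue labels. The 10 aleurone markers found include oleosins, lipid transfer proteins, vp1 and the NKD genes. Their summed level in aleurone was 11676 and 33899 TPM at 22 DAP and 20005 and 41412 TPM at 18 DAP, against 43.4 to 57.0 TPM in starchy endosperm. The gene plt1 held the largest part, with 6875 and 16977 TPM in aleurone at 22 DAP and 14636 and 28034 TPM at 18 DAP. Of the 10, plt2, Nkd1 and Nkd2 had both aleurone libraries at 22 DAP above both at 18 DAP, and 0 had both below. The 33 starchy endosperm markers, zeins and starch enzymes, summed to 139520 and 147015 TPM in aleurone at 22 DAP and 115609 and 118882 TPM at 18 DAP, against 594056 to 629740 TPM in starchy endosperm, so their transcripts were present in every aleurone library. In such bulk samples fewer cells of a type and less RNA per cell cannot be told apart. Total counts per library were between 2473005 and 11529168. Replicate 2 of starchy endosperm at 22 DAP stood apart, with 9335 genes detected, against 14186 to 18172 in the other starchy endosperm libraries.

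Because the aleurone libraries chose the genes, their levels in aleurone are given as a description. The median member had 24.0 and 31.1 TPM in aleurone at 22 DAP, against 5.89 and 4.90 TPM at 18 DAP. The lower value at 22 DAP was at least 100 TPM for 13 members, between 20 and 100 TPM for 66 and between 10 and 20 TPM for 62. The ratio of the lower 22 DAP to the higher 18 DAP value was between 2 and 3 for 70 members, between 3 and 10 for 51 and at least 10 for 12, and its median was 2.83 over these 133. For the remaining 8 members both libraries at 18 DAP were at 0. The credibility bounds of TPM that came with each value were separate between the ages for 110 members. They were not for 31, among them MADS4 and hsp18a. Just inside the limit lay GRMZM2G327655 (ratio 2.00), GRMZM2G164965 (2.00) and GRMZM2G091456 (2.01), and just outside it GRMZM2G043191 (2.00, below the limit before rounding), GRMZM2G091648 (1.98) and GRMZM2G451604 (1.97).

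**Figure D1:**
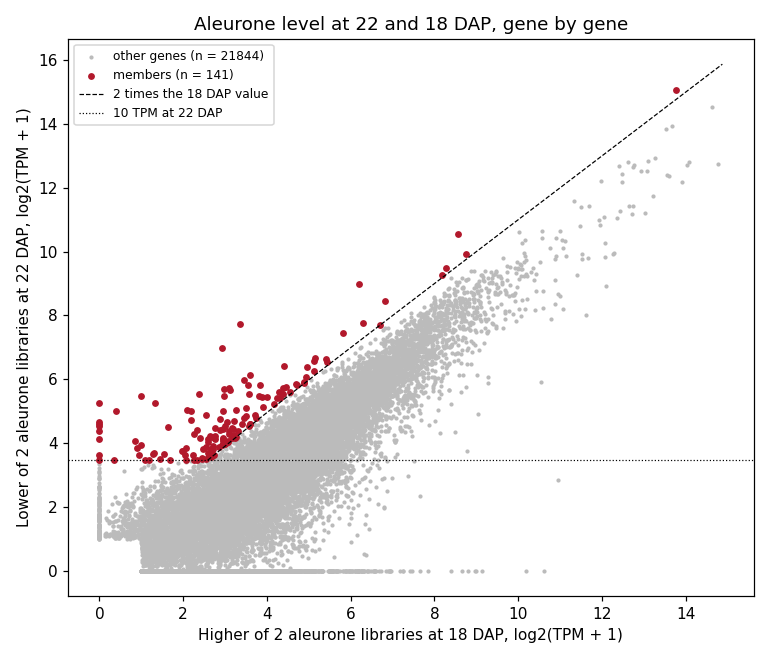
Each point is a gene with at least 1 TPM on an axis. The horizontal axis gives the higher of the 2 aleurone libraries at 18 DAP and the vertical axis the lower of the 2 at 22 DAP, both as log2(TPM + 1). The 141 members, in red, lie above the line of 2 times the 18 DAP value and above 10 TPM, and those at the left edge were at 0 TPM in both libraries at 18 DAP.

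A reference table held 100 of the members, and 20 of these carried a name other than a locus number. The named members are described by role, and gene families by lists of names drawn up with the members known. Over all 27167 genes with a count, both aleurone libraries at 22 DAP were above both at 18 DAP for 10.4% and below both for 15.8%, which is the background for each family count. Members are above by the rule, so every family count in aleurone holds genes selected for it and carries no test.

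MADS-box transcription factors, best known as regulators of flower organs and meristems, made up 5 of the 20 named members. The most abundant, zmm6, had 185 and 97.6 TPM in aleurone at 22 DAP, against 41.3 and 7.68 TPM at 18 DAP. MADS4 had 94.2 and 53.4 TPM at 22 DAP, against 21.0 and 12.2 TPM at 18 DAP. For zmm27 the values were 52.3 and 34.1 TPM at 22 DAP, against 14.0 and 4.79 TPM at 18 DAP. In all 3 genes replicate 1 was the higher library at both ages. MADS35 had 17.2 and 18.2 TPM at 22 DAP, against 5.42 and 1.87 TPM at 18 DAP. ZAG3, the bearded-ear gene of floral meristems, had 14.8 and 11.2 TPM at 22 DAP, against 0.94 and 0 TPM at 18 DAP. In starchy endosperm none of the 5 exceeded 0.50 TPM in any library.

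Of the 27 MADS-box genes with a count, 12 had both aleurone libraries at 22 DAP above both at 18 DAP (44.4%), and tunicate1 alone had both below. Besides the 5 members these were zmm16, MADS69, zag2, zmm14, ZAG1, zmm29 and zmm31. For example, zag2 had 33.0 and 24.4 TPM at 22 DAP, against 8.13 and 13.4 TPM at 18 DAP. The median fitted log2 fold change of the 22 tested MADS-box genes in aleurone was 1.5, against -0.01 over all 19058 tested genes, and none was called by edgeR. Since 5 of the 12 were selected by the same contrast, these counts carry no test. A wider list, fixed as transcription factor names, had 19 of 135 genes with a count above and 20 below in aleurone.

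The list of floral regulators was also used as a marker of other kernel tissue. Summed over the list, levels were 653 and 406 TPM in aleurone at 22 DAP, against 230 and 178 TPM at 18 DAP, and without the 5 members 290 and 191 TPM at 22 DAP, against 147 and 152 TPM at 18 DAP. In starchy endosperm the whole list summed to between 26.8 and 31.0 TPM. For photosynthesis, as in green maternal tissue, the aleurone sums over 19 genes were 47.0 and 110 TPM at 22 DAP and 37.5 and 67.9 TPM at 18 DAP, and 8 genes were at 0 in every aleurone library. One gene, psat1, held most of these sums. It was listed by its symbol alone, which does not show it to be a photosynthesis gene. The other 18 summed to 5.0 and 7.93 TPM at 22 DAP and 2.36 and 6.31 TPM at 18 DAP. Basal transfer layer markers summed to 15.4 and 4.92 TPM at 22 DAP and 14.1 and 7.45 TPM at 18 DAP, and 6 of 9, among them mn1 and MEG1, were at 0. The embryo list also held ESR genes, which are named for the endosperm region around the embryo. Of its 11 markers 4 were at 0 in all 4 aleurone libraries, namely lec1, wox5B, ESR1g2 and ESR3. The globulin gene GRMZM2G067919 (Glb1) held most of their sum, with 236 and 1268 TPM in aleurone at 22 DAP and 470 and 1747 TPM at 18 DAP. The globulin gene glb2 was the 1 embryo marker without overlap between the ages, with 7.51 and 37.2 TPM at 22 DAP, against 1.00 and 4.21 TPM at 18 DAP. What share of the MADS-box transcripts came from other tissue was not tested.

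The bZIP transcription factor lip15, named for induction by low temperature, had 216 and 469 TPM in aleurone at 22 DAP, against 47.3 and 76.9 TPM at 18 DAP. Unlike most members it was also abundant in starchy endosperm, with 76.0 and 249 TPM at 22 DAP, against 27.1 and 59.2 TPM at 18 DAP. Within each tissue its 2 ages did not overlap, and replicate 2 was the higher library in all 4 groups.

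Consecutive enzymes of flavonoid and anthocyanin synthesis were among the members that were nearly absent at 18 DAP. Flavanone hydroxylase, fht1, had 22.0 and 23.7 TPM in aleurone at 22 DAP and no count in either library at 18 DAP, which makes it at least 109-fold higher against a floor of 3 counts over the group. The reductase A1, which acts on the dihydroflavonols that this hydroxylase makes, had 31.4 and 33.7 TPM at 22 DAP, against 0.32 and 0 TPM at 18 DAP. On TMM-scaled counts A1 was 374-fold higher, with an exact 95% interval of 66.8 to 14822 that covers counting error only, because 18 DAP rested on 1 count. Neither gene had a count in any starchy endosperm library.

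Of the 11 flavonoid and anthocyanin genes with a count, 7 had both aleurone libraries at 22 DAP above both at 18 DAP, and 0 had both below. The glucosyltransferase bronze1 had 4.83 and 7.90 TPM at 22 DAP, against 0 and 2.07 TPM at 18 DAP. The WD40 regulator pac1 had 77.5 and 68.8 TPM at 22 DAP, against 57.6 and 54.3 TPM at 18 DAP, and a second gene paired with that name did not separate by age. Both genes paired with the name a2, an anthocyanidin synthase, were also above, and the more abundant, GRMZM6G474234, had 41.8 and 45.6 TPM at 22 DAP, against 20.8 and 37.0 TPM at 18 DAP. The bHLH regulator r1 had 0.85 and 1.12 TPM at 22 DAP, against 0.24 and 0 TPM at 18 DAP. The scarcer gene paired with a2, GRMZM2G345717, had 0.28 and 0.38 TPM at 22 DAP, against 0.15 and 0.07 TPM at 18 DAP. The ages overlapped at the early steps and also for bz2. That gene had 0 and 5.29 TPM at 22 DAP, against 0.56 and 0 TPM at 18 DAP. Chalcone synthase c2 had 0.65 and 0 TPM at 22 DAP, against 0.24 and 0.97 TPM at 18 DAP, and chalcone isomerase chi1 had 3.73 and 24.7 TPM at 22 DAP, against 2.47 and 15.9 TPM at 18 DAP. The MYB regulator c1 was at 0 in all aleurone libraries.

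Benzoxazinoids are defense compounds of grasses made from indole. BX3, a cytochrome P450 of their synthesis, had 15.6 and 30.9 TPM in aleurone at 22 DAP, against 0.80 and 0 TPM at 18 DAP. On scaled counts it was 155-fold higher, with an exact 95% interval of 42.6 to 1287. Of the 8 pathway genes with a count, 4 had both aleurone libraries at 22 DAP above both at 18 DAP and 0 had both below. Beside BX3 these were bx6, with 7.73 and 14.1 TPM at 22 DAP against 0.98 and 2.82 TPM at 18 DAP, and the scarce bx1 and BX5, which stayed under 3 TPM. The glucosyltransferases bx8 and bx9 were far more abundant at both ages, and their ages overlapped. For bx9 the values were 41.8 and 89.7 TPM at 22 DAP, against 67.1 and 106 TPM at 18 DAP.

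Both proteases and protease inhibitors were among the members. The legumain-type protease see2b had 58.4 and 36.6 TPM in aleurone at 22 DAP, against 17.1 and 16.1 TPM at 18 DAP. The cysteine protease mir3 had 26.2 and 35.3 TPM at 22 DAP, against 8.69 and 9.99 TPM at 18 DAP. Of the 6 named cysteine proteases with a count, 5 had both libraries at 22 DAP above both at 18 DAP, with ccp1 the most abundant at 220 and 186 TPM at 22 DAP, against 102 and 108 TPM at 18 DAP. The gene cystatin7, of a family of cysteine protease inhibitors, had 350 and 503 TPM at 22 DAP, against 97.8 and 111 TPM at 18 DAP. In starchy endosperm cystatin7 had 13.3 and 41.1 TPM at 22 DAP, against 35.6 and 73.8 TPM at 18 DAP, and these ages overlapped. Across the 8 cystatins with a count, 3 were above and 1 below in aleurone. The wound-induced inhibitor wip1 lay at the edge of the level rule, with 10.0 and 12.8 TPM at 22 DAP, against 3.01 and 3.19 TPM at 18 DAP.

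Among genes of oxidative metabolism, the copper/zinc superoxide dismutase Sod4A had 209 and 273 TPM in aleurone at 22 DAP, against 102 and 89.3 TPM at 18 DAP. It was also higher with age in starchy endosperm, with 34.7 and 41.2 TPM at 22 DAP, against 6.59 and 9.80 TPM at 18 DAP. Of the 4 superoxide dismutase genes, sod2, sod3 and Sod4A had both libraries at 22 DAP above both at 18 DAP in aleurone. The same 3 did in starchy endosperm, where 4.8% of genes with a count did so. Among genes at 10 TPM or more in both aleurone libraries at 22 DAP, as all 4 were, the share was 8.87%. The glutathione S-transferase gst19 had 20.6 and 29.8 TPM at 22 DAP, against 8.17 and 4.73 TPM at 18 DAP in aleurone. Over its family of 22 genes with a count, 2 were above and 4 below. The aldehyde dehydrogenase rf2c had 41.8 and 83.4 TPM at 22 DAP, against 17.9 and 14.1 TPM at 18 DAP. The thiazole enzyme of thiamine synthesis, thi2, had 55.4 and 170 TPM at 22 DAP, against 4.08 and 13.3 TPM at 18 DAP, a ratio of means of 13.0.

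Other classes had single members. The aquaporin-family channel NIP1-1 had 28.7 and 23.1 TPM in aleurone at 22 DAP and no count at 18 DAP, at least 36.4-fold higher, and no count in starchy endosperm. Among 22 aquaporin genes with a count, 6 were above and 2 below in aleurone. The annexin anx2, of a family of calcium-dependent membrane-binding proteins, had 18.3 and 11.8 TPM at 22 DAP, against 5.04 and 2.74 TPM at 18 DAP, and of 9 annexins 1 was above and 1 below.

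**Figure D2:**
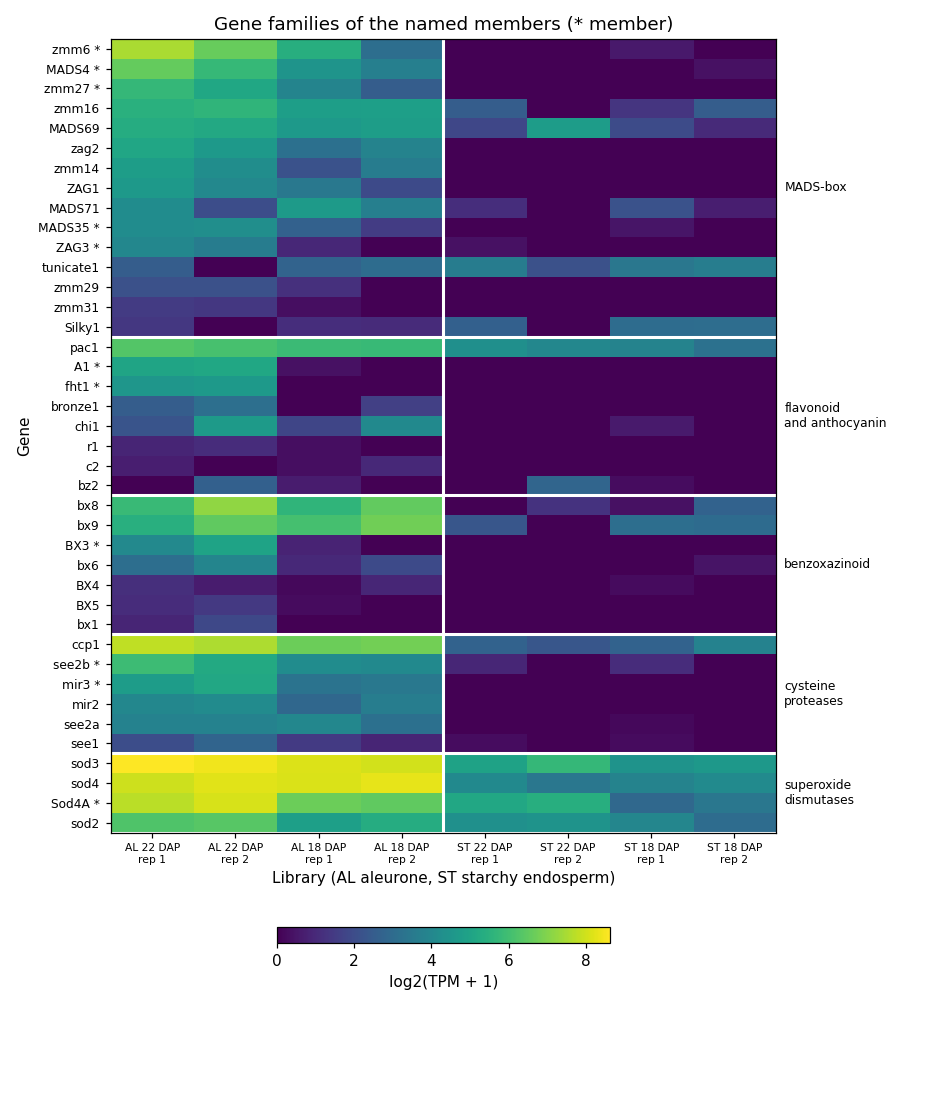
Rows are selected genes of 5 families, with members marked by an asterisk, columns are the 8 libraries, and the colour gives log2(TPM + 1). Most MADS-box genes with a count whose ages overlapped in aleurone, such as MADS76 and MADS67, are not shown. The genes paired with the name a2 are not shown either. MADS-box genes such as zmm6 (185 and 97.6 TPM at 22 DAP) and the pigment genes A1 and fht1 are bright in the aleurone columns at 22 DAP and dark in the starchy endosperm columns, whereas Sod4A is also visible in starchy endosperm.

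The small heat shock protein gene hsp18a stood in opposite order by age in the tissues. It had 11.4 and 11.6 TPM in aleurone at 22 DAP and no count at 18 DAP, at least 21.6-fold higher. The credibility bounds of its TPM in aleurone were not separate between the ages. In starchy endosperm it had 0.60 and 0 TPM at 22 DAP, against 8.12 and 13.9 TPM at 18 DAP. Of the 15 heat shock genes, 1 was above and 2 were below in aleurone, and 0 were above and 9 below in starchy endosperm, where 14.3% of genes with a count were below.

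The most abundant members had no name. GRMZM5G892124 was listed at 34126 and 34477 TPM in aleurone at 22 DAP, against 13824 and 11255 TPM at 18 DAP. These TPM rest on 156 and 391 counts at 22 DAP, against 57.1 and 103 counts at 18 DAP, over a listed gene length of 144 bases in the aleurone libraries. Because TPM divides by length, this gene held most of the summed TPM of the set, which was 45439 and 48735 TPM at 22 DAP, against 16235 and 13715 TPM at 18 DAP. Without it the sums were 11313 and 14259 TPM at 22 DAP, against 2412 and 2460 TPM at 18 DAP.

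The next 4 were well covered by reads. GRMZM2G091054 had 3079 and 1510 TPM in aleurone at 22 DAP, against 375 and 173 TPM at 18 DAP, from 3319 and 4048 counts at 22 DAP and 366 and 373 counts at 18 DAP. GRMZM2G166141 had 961 and 2970 TPM at 22 DAP, against 168 and 434 TPM at 18 DAP, so that its replicates differed more than 2-fold within each age. GRMZM2G366392 was even between replicates, with 726 and 722 TPM at 22 DAP, against 310 and 294 TPM at 18 DAP. GRMZM2G164440 had 616 and 1037 TPM at 22 DAP, against 237 and 291 TPM at 18 DAP, and under 0.4 TPM in each starchy endosperm library.

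GRMZM2G045809 had 500 and 561 TPM in aleurone at 22 DAP, against 44.6 and 72.5 TPM at 18 DAP. GRMZM2G150134 had 213 and 318 TPM at 22 DAP, against 4.19 and 9.18 TPM at 18 DAP, a ratio of means of 39.7. GRMZM2G114356 had 126 and 202 TPM at 22 DAP, against 6.60 and 2.61 TPM at 18 DAP, a ratio of means of 35.7. Both of these were at or below 0.97 TPM in each starchy endosperm library. GRMZM2G332838 had 174 and 214 TPM at 22 DAP, against 53.2 and 55.6 TPM at 18 DAP, a ratio of means of 3.56.

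Apart from fht1, NIP1-1 and hsp18a, 5 members had no count at 18 DAP. GRMZM2G069146, with 16.6 and 46.4 TPM in aleurone at 22 DAP, was at least 68.9-fold higher, and GRMZM2G423898, with 24.1 and 58.8 TPM, at least 30.6-fold. GRMZM2G125441, with 15.9 and 10.0 TPM, was at least 14.2-fold higher. The other two rested on few reads: GRMZM5G897394 had 3 and 7 counts at 22 DAP and GRMZM6G816863 had 3 and 10 counts, so their lower bounds were 3.09-fold and 4.01-fold.

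**Figure D3:**
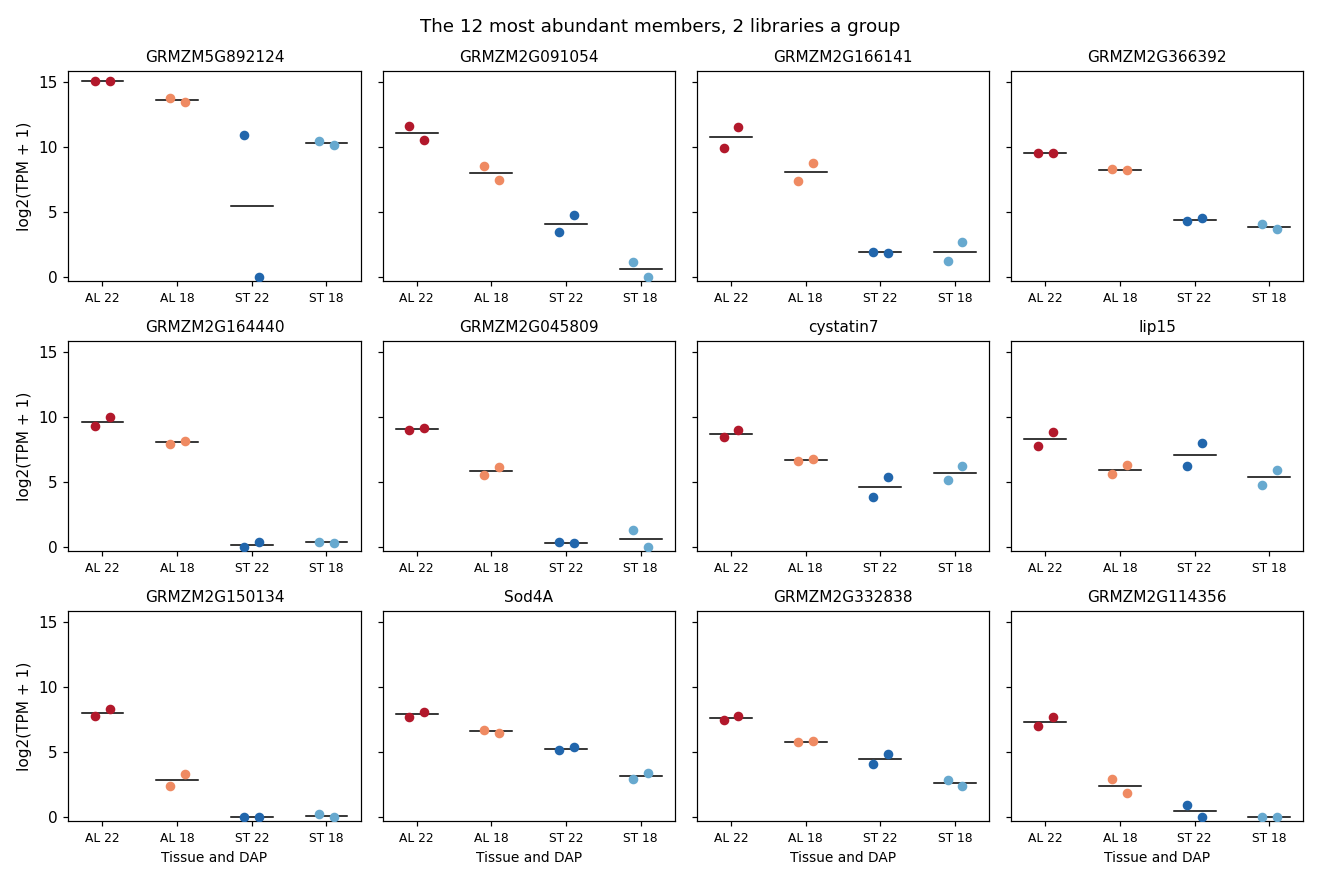
Each panel is 1 of the 12 most abundant members, with 2 libraries a group as points, their mean on the log scale as a line, and log2(TPM + 1) on the vertical axis. Aleurone at 22 DAP lies above aleurone at 18 DAP in every panel, as the rule requires, while the starchy endosperm points differ from gene to gene, and lip15 at 22 DAP reaches 249 TPM there.

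The starchy endosperm libraries did not enter the rule, and the change with age there was tested. The edgeR, DESeq2 and limma fits took each gene's spread from all 8 libraries, including the aleurone libraries that chose the members. The members' p values are therefore not fully independent of the rule. The edgeR quasi-likelihood test on all 19058 tested genes called 0 genes at a Benjamini-Hochberg adjusted p under 0.05 (0%), and hence 0 of the 138 members tested. At an unadjusted p under 0.05, 6 members were higher at 22 DAP, where the background was 0.903% of tested genes, and 11 were lower, where it was 2.53%. These are 4.35% and 7.97% of the members tested, both above the background share. That background was over all tested genes, not over genes at the members' aleurone level. With the spread shared between the tissues, these shares cannot show a change with age particular to the members. At the same limit DESeq2 had 5.8% of members higher, against 2.64% of tested genes, and 10.1% lower, against 5.08%. With limma on log2(TPM + 1) 4.35% were higher, against 0.997%, but 2.17% were lower, against 3.65%. The excess on the lower side thus depended on the tool. The lowest unadjusted p values among members were those of GRMZM2G091054, with a log2 fold change of 5.53 ± 1.10 (SE), GRMZM2G052100 with 8.31 ± 1.80, and Sod4A with 2.05 ± 0.53, all with an edgeR adjusted p of 1. GRMZM2G091054 had 9.90 and 27.0 TPM in starchy endosperm at 22 DAP, against 1.32 and 0 TPM at 18 DAP.

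Other tools gave few calls. DESeq2 called 32 genes in starchy endosperm (0.168%) and 2 members, GRMZM2G091054 (adjusted p = 0.00878) and GRMZM2G052100 (adjusted p = 0.0346), both higher at 22 DAP, and limma on log2(TPM + 1) called 0. Without a filter on low counts edgeR called 62 genes (0.228%), and GRMZM2G091054 as the only member. One library decided the count: without replicate 1 of starchy endosperm at 22 DAP, which left that group with the library of 9335 detected genes alone, edgeR called 3166 genes (14.5%) and 15 members (10.8%), of which 5 were higher (background 0.664%) and 10 lower (13.8%). There the lone library is assumed to vary like the other groups. The 5 higher members were Sod4A, GRMZM2G091054, GRMZM2G052100, GRMZM2G390732 and GRMZM2G301823, and hsp18a was among the 10 lower.

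Both starchy endosperm libraries at 22 DAP lay above both at 18 DAP for 9 members (6.38%), against 8.87% of the 8751 genes that also had 10 TPM or more in both aleurone libraries at 22 DAP. Both lay below for 17 members (12.1%), against 20.3%. Over all 27167 genes with a count, whatever their level in aleurone, the shares were 4.8% above and 14.3% below. A gene without a count in starchy endosperm can be neither, and 31 members had none. Among genes at the same aleurone level that had a count there, 8.18% of 110 members lay above, against 9.07% of 8554 genes, and 15.5% of members lay below, against 20.8%. The 9 were lip15, Sod4A, GRMZM2G091054, GRMZM2G332838, GRMZM2G366392, GRMZM2G052100, GRMZM2G152041, GRMZM2G042492 and GRMZM2G390732. GRMZM2G152041 was nearly as abundant there as in aleurone, with 34.5 and 59.0 TPM in starchy endosperm at 22 DAP, against 15.5 and 17.3 TPM at 18 DAP. Over the 108 tested members with a count in starchy endosperm, the median log2 fold change was -0.35, and over the 17485 such genes it was -0.42.

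Levels in starchy endosperm were low in general. The median member had 0.33 and 0 TPM there at 22 DAP and 0.49 and 0 TPM at 18 DAP, whereas the median of the 8751 genes was 6.37 and 4.18 TPM at 22 DAP and 7.19 and 5.99 TPM at 18 DAP. The 31 members without a count in any starchy endosperm library were 22% of the set, against 2.25% of the 8751 genes. At 22 DAP both aleurone libraries were above both starchy endosperm libraries for 135 members (95.7%), against 90.7% of those genes. At 18 DAP this held for 89 members (63.1%), against 88.7%, and 11 members (7.8%) had aleurone below starchy endosperm in both libraries, against 1.79%. As the aleurone values chose the members, with high values at 22 DAP and low values at 18 DAP, these shares are a description.

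**Figure D4:**
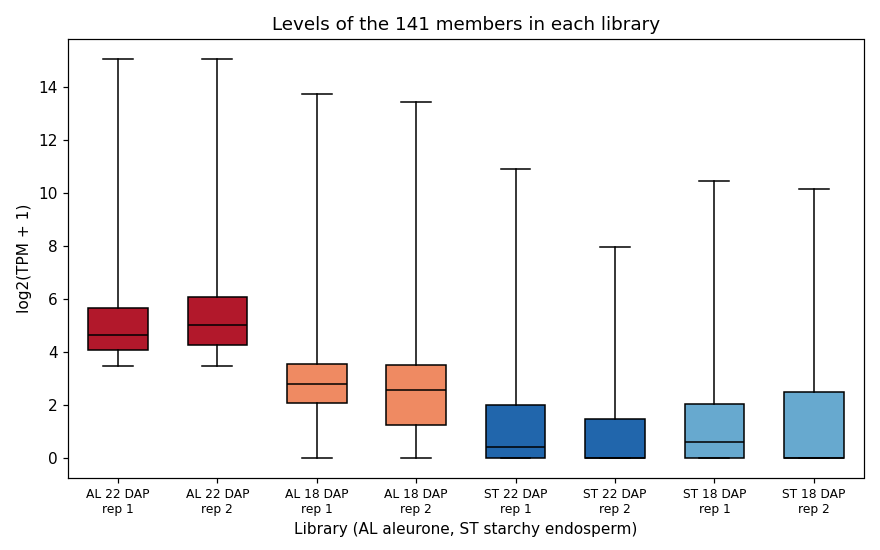
Boxes give the quartiles and median of log2(TPM + 1) over the 141 members in each of the 8 libraries, and whiskers reach the lowest and highest member. The medians are 24.0 and 31.1 TPM in aleurone at 22 DAP, 5.89 and 4.90 TPM at 18 DAP, and under 0.5 TPM in each starchy endosperm library.

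In aleurone itself edgeR called 0 genes between the ages (0%). At an unadjusted p under 0.05, 126 genes were higher (0.661%), 44 of them members, and 70 were lower (0.367%), 0 of them members. DESeq2 called 3 genes (0.0157%), with the members GRMZM2G150134 and GRMZM2G114356, and limma called 25 (0.131%), with 10 members. Without the filter edgeR called 6 genes (0.0221%), among them GRMZM2G150134, GRMZM2G091054, GRMZM2G166141, GRMZM2G045809 and lip15. The rule used this contrast, so the members' share of these calls says nothing further about them. Scaling was checked by taking the ratio on TMM-scaled CPM, where both libraries at 22 DAP were above both at 18 DAP for 140 of the 141 members and the ratio was at least 2 for 120.

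The 2 aleurone libraries at 22 DAP were also compared with each other, as a description, since the rule used these values. Replicate 2 was above replicate 1 for 99 members (70.2%), against 29.8% of the 8751 genes, and the median ratio of replicate 2 to replicate 1 was 1.22 for members, against 0.754 for those genes. At 18 DAP the shares were 34.8% of members and 29% of those genes. In thi2 and GRMZM2G166141 replicate 2 had about 3 times the TPM of replicate 1, while zmm6, MADS4 and zmm27 were higher in replicate 1. The summed aleurone markers were also higher in replicate 2, at 33899 TPM, than in replicate 1, at 11676 TPM, and their part in the members' levels was not tested.

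**Figure D5:**
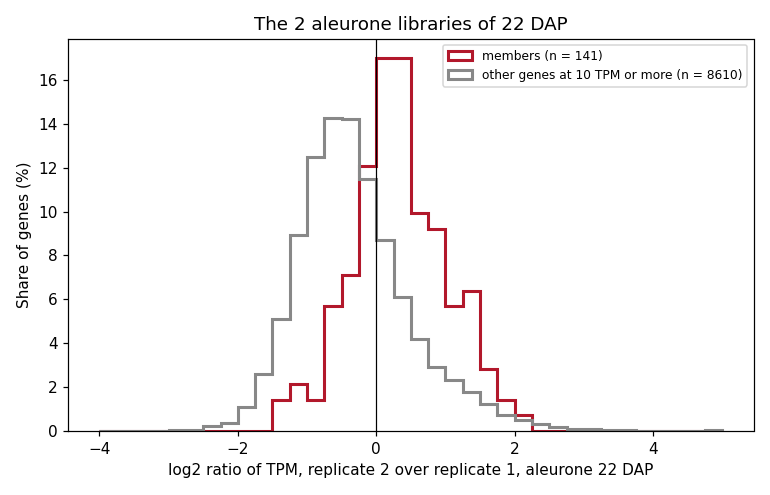
The histogram gives the share of genes, in percent, by the log2 ratio of TPM in replicate 2 over replicate 1 of aleurone at 22 DAP, for members in red and other genes at 10 TPM or more in grey. The members lie further to the right, with a median ratio of 1.22, against 0.754 over all 8751 genes at that level, and both libraries entered the rule that chose them.

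Members tended to be short. Their median gene length was 1122 bases, against 1518 bases over the 8751 genes, and 9 members (6.38%) were under 500 bases, against 1.95%. Short genes need fewer reads to reach 10 TPM, a level that the 8751 genes met too, and 5 members had under 10 counts in a 22 DAP library. Why the members were shorter was not tested. A single transcript was listed for 71 members. Of the 70 with several, 32 had the same main transcript in all 4 aleurone libraries, and 5 had one main transcript in both libraries at 22 DAP and another in both at 18 DAP. Those 5, picked after their values were seen, were GRMZM2G069694, GRMZM2G144594, GRMZM2G114552, GRMZM2G009892 and GRMZM2G377131, each at no more than 5.56 TPM at 18 DAP. The same counts were not made over all genes with several transcripts. Whether 5 or 32 of 70 is unusual therefore cannot be said. In GRMZM2G377131 the main transcript of 22 DAP held 75.7% and 79.5% of the gene's transcripts at 22 DAP, against 14.1% and 0% at 18 DAP.

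Of the 98 members placed in the reference, MADS4 and GRMZM2G097129 were next to each other, and 3 pairs lay within 5 genes. GRMZM2G097129 had 22.8 and 10.4 TPM in aleurone at 22 DAP, against 1.64 and 1.73 TPM at 18 DAP. A second pair, GRMZM2G050412 and GRMZM2G163406, lay 2 genes apart, and both were at or below 0.55 TPM in replicate 1 of starchy endosperm at 22 DAP.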

How the data were processed

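The authors deposited RSEM tables for 8 libraries, with an expected count and TPM for each gene, the share in percent of each transcript within its gene, a length, and lower and upper credibility bounds of TPM (a signal scale), per the file headers. Per the submitters' processing notes, reads went through FastQC, Bowtie2 2.2.3, SAMtools and RSEM 1.2.15 on B73 RefGen_v3. Strand setting and annotation were not given in the sources used here, so overlapping genes may share reads.

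Expected counts were rounded, filtered with filterByExpr, scaled by TMM and tested with edgeR 4.0.16 (R 4.3.3) in 1 model of 4 group means over all 8 libraries. Adjusted p values are Benjamini-Hochberg over 19058 genes. The fit was tested on simulated data. These had the same spread for every gene, so they do not measure how well the fit finds changes in these libraries. Alternatives used DESeq2 1.42.0 and limma 3.58.1 on log2(TPM + 1), with a pseudocount of 1. Lower bounds stand against 3 counts over a group, intervals are exact 95% binomial (Clopper-Pearson), and both cover counting error only.

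The members and lists were chosen with earlier results of these data known. Names came from a reference table of Zm-B73-REFERENCE-NAM-5.0, which gives symbols and synonyms but no descriptions, so lists planned on descriptions were matched on names only, and most found few genes. No promoter or protein sequence was used here. Members were named as the 12 highest by level, the 8 of largest ratio, up to 3 of each list, and the 3 nearest each side of the ratio limit. Other members with a reference name, and members that are counted in groups of 5 or fewer or listed by name, were chosen after their values were seen.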

Additional observations from a re-analysis of the deposited data

Results flagged for a closer look

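The gene hsp18a stood in opposite order by age in the tissues, by TPM in every library. Its credibility bounds in aleurone were not separate between the ages. On log2(mean TPM + 1), 22 DAP minus 18 DAP was 3.64 in aleurone and -3.20 in starchy endosperm, a difference of 6.85 between the tissues. This difference was not tested, since the aleurone libraries chose the gene.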

How the results depend on the processing

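The number of members depended on the limits. It was 273 at a ratio of 1.5 and 71 at a ratio of 3, 227 at a level of 5 TPM and 79 at 20 TPM, and 726 with means of the libraries, against 141. Leaving out 1 aleurone library gave 260 to 844. TMM-scaled CPM in place of TPM gave 96, of which 66 were shared, and TPM for the level with the ratio on TMM-scaled CPM, added after seeing the data, gave 159, of which 120 were shared. For named members the log2 ratio in aleurone moved by less than the replicate spread in 24 of 37 under TMM-scaled CPM. The 13 that moved further included A1 and all 8 members without a count at 18 DAP. In those 8 the ratio fell, least in fht1 (4.57 to 4.41) and most in GRMZM5G897394 (5.30 to 0.66).

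In starchy endosperm 0 genes were called, against 62 without a filter and 32 by DESeq2, with 1 and 2 members, and 0 to 3166 genes with 0 to 15 members when 1 library was left out. In aleurone it was 0, against 6 without a filter, 3 by DESeq2 and 25 by limma (10 members, added after seeing the data), and 0 to 0 when 1 library was left out. Other scalings called 0 in either tissue. With the replicate number as a block 0 genes were called in either tissue. The numbers share no stated source. Differences between replicates correlated at 0.21 to 0.46 across genes over pairs of groups. Depth limits members that rest on few reads, such as GRMZM5G897394 with 3 and 7 counts at 22 DAP. The cause of these shifts was not tested.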
